A study of Homo sapiens with 60 samples.

Results

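The nuclear-encoded subunits of the mitochondrial respiratory chain were followed by RNA-seq in SW1783 cells, a human astrocytoma line, across 20 treatment groups. Members were the protein-coding genes whose symbol begins with NDUFA, NDUFB, NDUFC, NDUFS, NDUFV, UQCR, COX4I, COX5, COX6, COX7, COX8, ATP5F, ATP5M or ATP5P, or is SDHA, SDHB, SDHC, SDHD or CYC1. Genes of the NDUFAF assembly factors were left out. Of 90 matching genes, 82 had a mean of at least 1 CPM (counts scaled to library size) in at least 1 group and form the set described here, out of 17792 genes tested and 60675 gene identifiers in the table. The set holds 37 subunits of complex I, 4 of complex II, 10 of complex III, 13 of complex IV with NDUFA4 counted there, and 18 of complex V. All 82 passed the filter on low counts. The 8 matching genes that stayed under 1 CPM in every group were COX4I2, COX6A2, COX7A1, COX7B2, COX8C, NDUFA4L2, ATP5MGL and the read-through gene NDUFC2-KCTD14.

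Cells were exposed for 24 h to 10 μM wortmannin, an inhibitor of phosphoinositide 3-kinases used as positive control, to a water extract of 1 of 6 medicinal herbs, or to vehicle. Polygalae Radix was given at 10, 50 and 250 μg/mL. Schisandrae Fructus, Aucklandiae Radix, Liriopis seu Ophiopogonis Tuber, Longan Arillus and Zizyphi Semen were each given at 20, 100 and 500 μg/mL. Each of the 20 groups has 3 libraries, 60 in all, and the series text says that extracts with a lower inhibitory concentration were given at that concentration and at dilutions of it. The vehicle is 0.1% DMSO in the labels and 2% DMSO in the series text, and no DMSO content is given for wortmannin or the extracts. Separate cultures are not stated for the 3 libraries of a group, so p-values measure the spread between these libraries, which may be technical. Library names begin with A1 for vehicle and with 1 for wortmannin, while they share a first number, and so form a set, for Liriopis and Schisandrae, for Longan and Zizyphi, and for Polygalae and Aucklandiae. No label says what these names stand for and every title gives the same batch, so a difference between a treatment and vehicle cannot be told apart from a difference between sets, whereas 2 doses of one extract share a set. Comparisons of the highest with the lowest dose are therefore given first.

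The respiratory chain sits in the inner mitochondrial membrane. Complex I takes electrons from NADH and complex II takes them from succinate, ubiquinone carries them to complex III, cytochrome c carries them on to complex IV, and complex IV passes them to oxygen. Complexes I, III and IV pump protons as they work, and complex V, the ATP synthase, uses the returning protons to make ATP. Most subunits are encoded in the nucleus and imported, a small number are encoded by mitochondrial DNA (mtDNA), and every subunit of complex II is nuclear. Transcription of the nuclear genes is known to involve NRF1, GABPA, YY1 and ESRRA, with the coactivator PGC-1α (PPARGC1A), while TFAM acts on mtDNA. Astrocytes and the cells of many gliomas also draw on glycolysis.

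The shallowest library held 9.34 M expected counts, the deepest 35.4 M and the median library 25.7 M. In 59 libraries the summed level of the 82 members lay between 4696 and 6156 CPM, with a median of 5602 CPM, and it was 13526 CPM in replicate 1 of the 500 μg/mL Liriopis group. Short transcripts run high in that library, as described further on, and all 60 libraries share one estimate of the spread, so counts of members that passed the test are given with it and again without it. The median standard error of a member's log2 fold change was 0.17 with that library in the fit. In the 59 others, genes under 1 kb had medians from −0.104 to 0.0768 in log2 CPM around their mean over the 60 libraries. Those of the members ran from −0.201 to 0.131. Any part of this variation in small differences of medians and sums was not tested. The tissue markers of the line were uneven. The astrocyte protein genes GFAP and S100B stood at 0.148 ± 0.062 and 0.0485 ± 0.0559 CPM in vehicle (SD, n = 3) and AQP4 at 0 in those 3 libraries, while vimentin (VIM) stood at 4785 ± 41.1 CPM and CD44 at 2815 ± 115 CPM. In bulk RNA, fewer cells of a kind and less RNA per cell cannot be told apart.

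In vehicle, members ranged from 0.506 ± 0.059 CPM for COX6B2, the testis form of subunit 6B of complex IV, to 445 ± 14.7 CPM for ATP5F1B, the catalytic beta subunit of ATP synthase (SD, n = 3). Set per kilobase of transcript, the median member level was 63.0 CPM per kb, and the medians by complex were 48.8 for complex I, 55.8 for complex II, 79.0 for complex III, 125 for complex IV and 82.7 for complex V. The highest members per kb were NDUFS5 of complex I at 173 CPM per kb, SDHC at 204, UQCRB of complex III at 146, COX8A at 244 and ATP5MF of complex V at 393. Their levels before that division were 94.7 ± 10.3, 93.9 ± 2.20, 94.0 ± 9.35, 124 ± 12.7 and 127 ± 9.74 CPM in vehicle (SD, n = 3 each).

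Where a subunit exists in a ubiquitous and a tissue form, the ubiquitous form made up nearly all of the signal. COX4I1, COX6A1, COX7A2, COX7B and COX8A stood at 109 ± 9.08, 74.0 ± 10.4, 68.9 ± 8.34, 75.5 ± 6.08 and 124 ± 12.7 CPM in vehicle (SD, n = 3 each). The highest group mean in any of the 20 groups was 0.0123 CPM for COX4I2, 0.0309 for COX6A2, 0.300 for COX7A1, 0.260 for COX7B2 and 0.0754 for COX8C. NDUFA4, a subunit of complex IV despite its name, stood at 116 ± 12.8 CPM in vehicle, and its hypoxia-linked relative NDUFA4L2 reached 0.946 CPM at most as a group mean. The 3 genes for the same c-subunit of the ATP synthase ring differed, with ATP5MC2 at 114 ± 6.97, ATP5MC1 at 82.8 ± 5.92 and ATP5MC3 at 5.63 ± 0.675 CPM in vehicle.

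**Figure D1:**
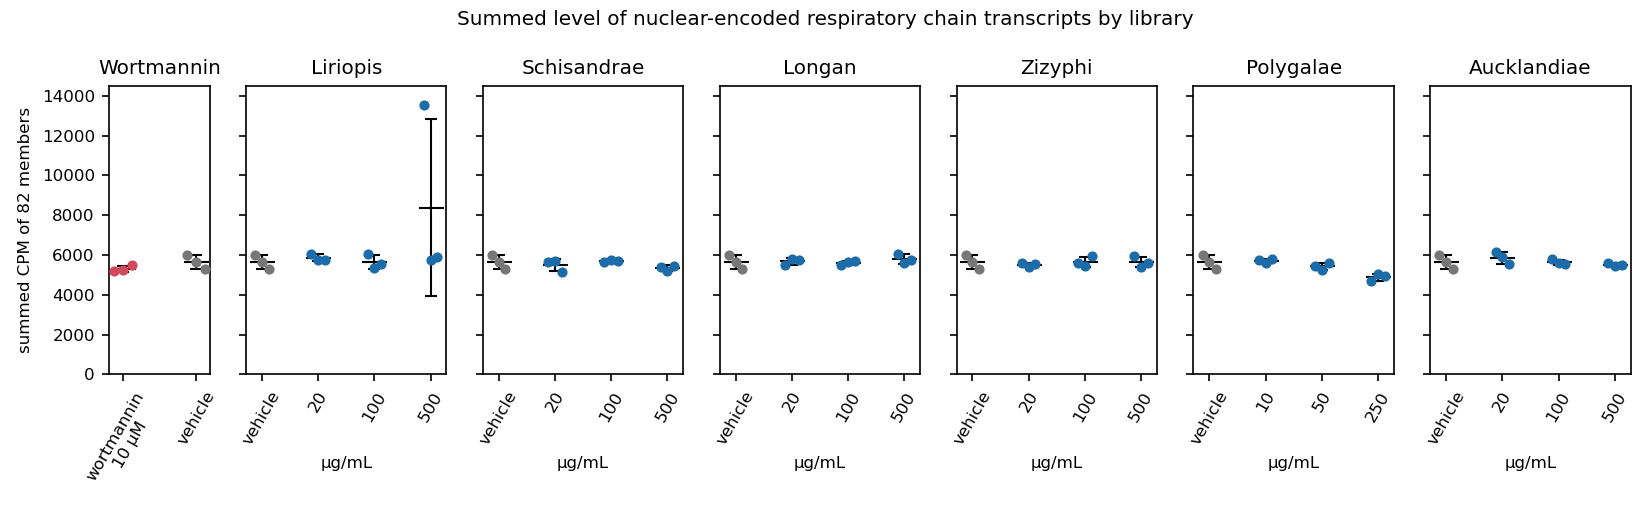
Summed level of the 82 nuclear-encoded subunits in each library, in CPM (vertical axis), for wortmannin beside vehicle and for each extract from vehicle through its 3 doses in μg/mL (horizontal axes). Points are libraries and bars give the mean ± SD of 3. On this TMM-scaled axis the 250 μg/mL Polygalae libraries lie lowest. In 500 μg/mL Liriopis, 1 library stands at 13526 CPM, above the 59 others.

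At 250 μg/mL Polygalae, some of the core subunits of complexes I, II, III and V were lower. Against 10 μg/mL, 12 of 82 members fell and 1 rose at an adjusted p under 0.05 by edgeR's quasi-likelihood test with Benjamini-Hochberg adjustment over all genes, where 18.3% of all genes fell and 17.9% rose. Without replicate 1 of 500 μg/mL Liriopis, 32 fell and 5 rose, where 22.7% and 23% of all genes did. The share of members that changed was below that of all genes with the library, at 15.9% against 36.2%, and close to it without the library, at 45.1% against 45.7%, so the count by itself does not set the members apart from other genes. The median member differed by −0.15 on the log2 scale and 70 of 82 lay below 0, beside a median of 0.01 over all genes. The summed level of the set was 4888 ± 171 CPM at 250 μg/mL and 5711 ± 91.1 CPM at 10 μg/mL (SD, n = 3 each). Without TMM scaling, the members made up 0.537 ± 0.025% of counts at 250 μg/mL and 0.584 ± 0.0091% at 10 μg/mL. In vehicle they made up 0.552 ± 0.036%, and on that scale the libraries at 250 μg/mL and in vehicle overlap.

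The largest of these falls was in the alpha subunit of the catalytic head of ATP synthase. This gene, ATP5F1A (ENSG00000152234, chr18:46080248-46104334, minus strand, GRCh38), read 278, 262 and 274 CPM in the vehicle libraries, 258, 240.3 and 253 CPM at 10 μg/mL, 207, 198 and 208 CPM at 50 μg/mL and 134, 135 and 141 CPM at 250 μg/mL. Each dose lay below the one before it, with no overlap between the 3 doses. The log2 fold change of 250 against 10 μg/mL was −0.87 (SE 0.062, adjusted p = 4.1e-16 by edgeR). ATP5F1B, the beta subunit that holds the catalytic sites (chr12:56638175-56646068, minus strand), read 460.4, 431 and 444 CPM in vehicle, 406, 407 and 405 CPM at 10 μg/mL, 345, 339 and 349 CPM at 50 μg/mL and 239, 257 and 246 CPM at 250 μg/mL. Its libraries followed the same order without overlap, and the change at 250 against 10 μg/mL was −0.71 (SE 0.057, adjusted p = 1.9e-14 by edgeR). ATP5PB, a subunit of the peripheral stalk that holds the head in place, read 87.8, 92.4 and 94.3 CPM at 250 μg/mL against 139, 129 and 132 CPM at 10 μg/mL, a log2 fold change of −0.54 (adjusted p = 0.00028). The gamma subunit of the central shaft, ATP5F1C, fell by 0.36 (adjusted p = 0.011). Complex V as a whole summed to 1408 ± 46.7 CPM at 250 μg/mL and 1814 ± 34.2 CPM at 10 μg/mL.

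Both core proteins of complex III fell. UQCRC1 (ENSG00000010256, chr3:48599002-48610976, minus strand) read 175, 160.3 and 156 CPM in vehicle, 151, 162 and 152 CPM at 10 μg/mL, 135, 129 and 139 CPM at 50 μg/mL and 89.1, 99.8 and 90.8 CPM at 250 μg/mL, a log2 fold change of −0.73 at 250 against 10 μg/mL (SE 0.12, adjusted p = 1.5e-06). Its libraries at 250 μg/mL all lay below every other library of that series. UQCRC2 (chr16:21952660-21983660, plus strand) read 55.8, 60.4 and 59.6 CPM at 250 μg/mL against 81.0, 80.5 and 83.7 CPM at 10 μg/mL, and fell by 0.48 (SE 0.043, adjusted p = 8.9e-13). CYC1, the cytochrome c1 that hands electrons to cytochrome c, fell by 0.27 (adjusted p = 0.00011). The iron-sulphur protein UQCRFS1 did not pass and averaged 83.3 ± 3.62 CPM at 250 μg/mL and 78.6 ± 1.24 CPM at 10 μg/mL (SD, n = 3 each). In complex II, SDHA, the flavoprotein that oxidises succinate (chr5:218241-256700, plus strand), read 80.4, 81.6 and 86.9 CPM at 250 μg/mL against 106, 111 and 109 CPM at 10 μg/mL, without overlap, and fell by 0.39 (SE 0.044, adjusted p = 5.8e-10). The other 3 subunits of complex II did not pass the test, with log2 fold changes of −0.05 for the iron-sulphur protein SDHB and of −0.16 and 0.12 for the membrane anchors SDHC and SDHD (adjusted p = 0.82, 0.073 and 0.33). SDHC passed at −0.16 without replicate 1 of 500 μg/mL Liriopis (adjusted p = 0.0061) and at −0.21 without replicate 2 of 250 μg/mL Polygalae (adjusted p = 0.04).

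In complex I, some of the core subunits fell. The core subunits NDUFS3, NDUFS7, NDUFS8 and NDUFV2 did not pass in the fit of all libraries. Of these, NDUFS3, NDUFS7 and NDUFS8 fell without replicate 1 of 500 μg/mL Liriopis. NDUFV2 averaged 47.4 ± 1.38 CPM at 250 μg/mL and 47.3 ± 3.88 CPM at 10 μg/mL (SD, n = 3 each). NDUFV1, which binds NADH, read 38.1, 41.8 and 44.7 CPM at 250 μg/mL against 58.1, 61.0 and 58.6 CPM at 10 μg/mL, a log2 fold change of −0.51 (adjusted p = 0.00085). NDUFS1, which holds iron-sulphur clusters, fell by 0.26 (adjusted p = 0.0023). NDUFA9, an accessory subunit at the junction of the matrix and membrane arms, fell by 0.42 (adjusted p = 0.00051). NDUFV3, an accessory subunit beside NDUFV1, went the other way. It read 45.6, 43.8 and 45.3 CPM in vehicle, 48.5, 44.4 and 46.7 CPM at 10 μg/mL, 48.0, 49.1 and 51.5 CPM at 50 μg/mL and 56.2, 58.1 and 57.7 CPM at 250 μg/mL, and rose by 0.30 on the log2 scale at 250 against 10 μg/mL (SE 0.065, adjusted p = 0.00022). The 3 libraries at 250 μg/mL were above every other library of the series. In complex IV, 12 of 13 members lay below 0 but none passed by edgeR, 0 had an unadjusted p under 0.05 and DESeq2 called 0. COX4I1 was at −0.21 (adjusted p = 0.37), and at −0.21 without replicate 1 of 500 μg/mL Liriopis (adjusted p = 0.0021).

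A group of 15 members was taken apart, most of which bind substrates or carry electrons. It held core subunits of complex I, SDHA to SDHD of complex II, UQCRFS1 and CYC1 of complex III, and ATP5F1A and ATP5F1B of complex V. Its median log2 fold change was −0.27, with 7 falling and none rising. The other 67 members had a median of −0.14, with 5 falling and 1 rising. Of all genes, 18.3% fell and 17.9% rose. Without replicate 1 of 500 μg/mL Liriopis, 11 of the 15 fell and none rose, and 21 of the other 67 fell and 5 rose, with medians of −0.27 and −0.14. In that fit 22.7% of all genes fell and 23% rose. The 67 hold most of the members under 1 kb, and short transcripts run high in that library. The part of this in the counts of calls was not tested. Across the 82 members, the change had a Spearman rho of −0.28 with the level in vehicle, against −0.15 across all genes tested, which describes the genes of one fit and is no test. The group means fell at each step from 10 to 50 to 250 μg/mL for 55 members and rose at each step for 10. The share of all genes was not computed for these steps.

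The comparisons with vehicle gave related values for Polygalae and share the limit on library sets. At 250 μg/mL, 14 members were lower than in vehicle and 1 was higher, where 22.9% of all genes were lower and 23.1% higher, and without replicate 1 of 500 μg/mL Liriopis 27 were lower and 9 higher (26.5% and 27.5% of all genes). At 50 μg/mL, 3 were lower and none higher (14.9% and 15.2% of all genes), namely ATP5F1A at −0.41, ATP5F1B at −0.37 and UQCRC2 at −0.26 (adjusted p = 5.8e-07, 8.6e-07 and 4.7e-06 by edgeR). Without that Liriopis library, 9 members were lower and 10 higher at 50 μg/mL (19.2% and 21.2% of all genes). At 10 μg/mL no member passed the edgeR test or DESeq2, and 3 had an unadjusted p under 0.05 (3.46% of all genes were lower and 3.01% higher). Without the Liriopis library, 2 were lower and 1 higher at 10 μg/mL (7.24% and 6.66% of all genes). COX6B2 was among the 14 at 250 μg/mL, with 0.284, 0.223 and 0.321 CPM against 0.438, 0.540 and 0.541 CPM in vehicle (log2 fold change −0.87, adjusted p = 0.048). At that low level its call did not hold when any 1 of these 6 libraries was left out, where the adjusted p lay between 0.05 and 0.14.

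**Figure D2:**
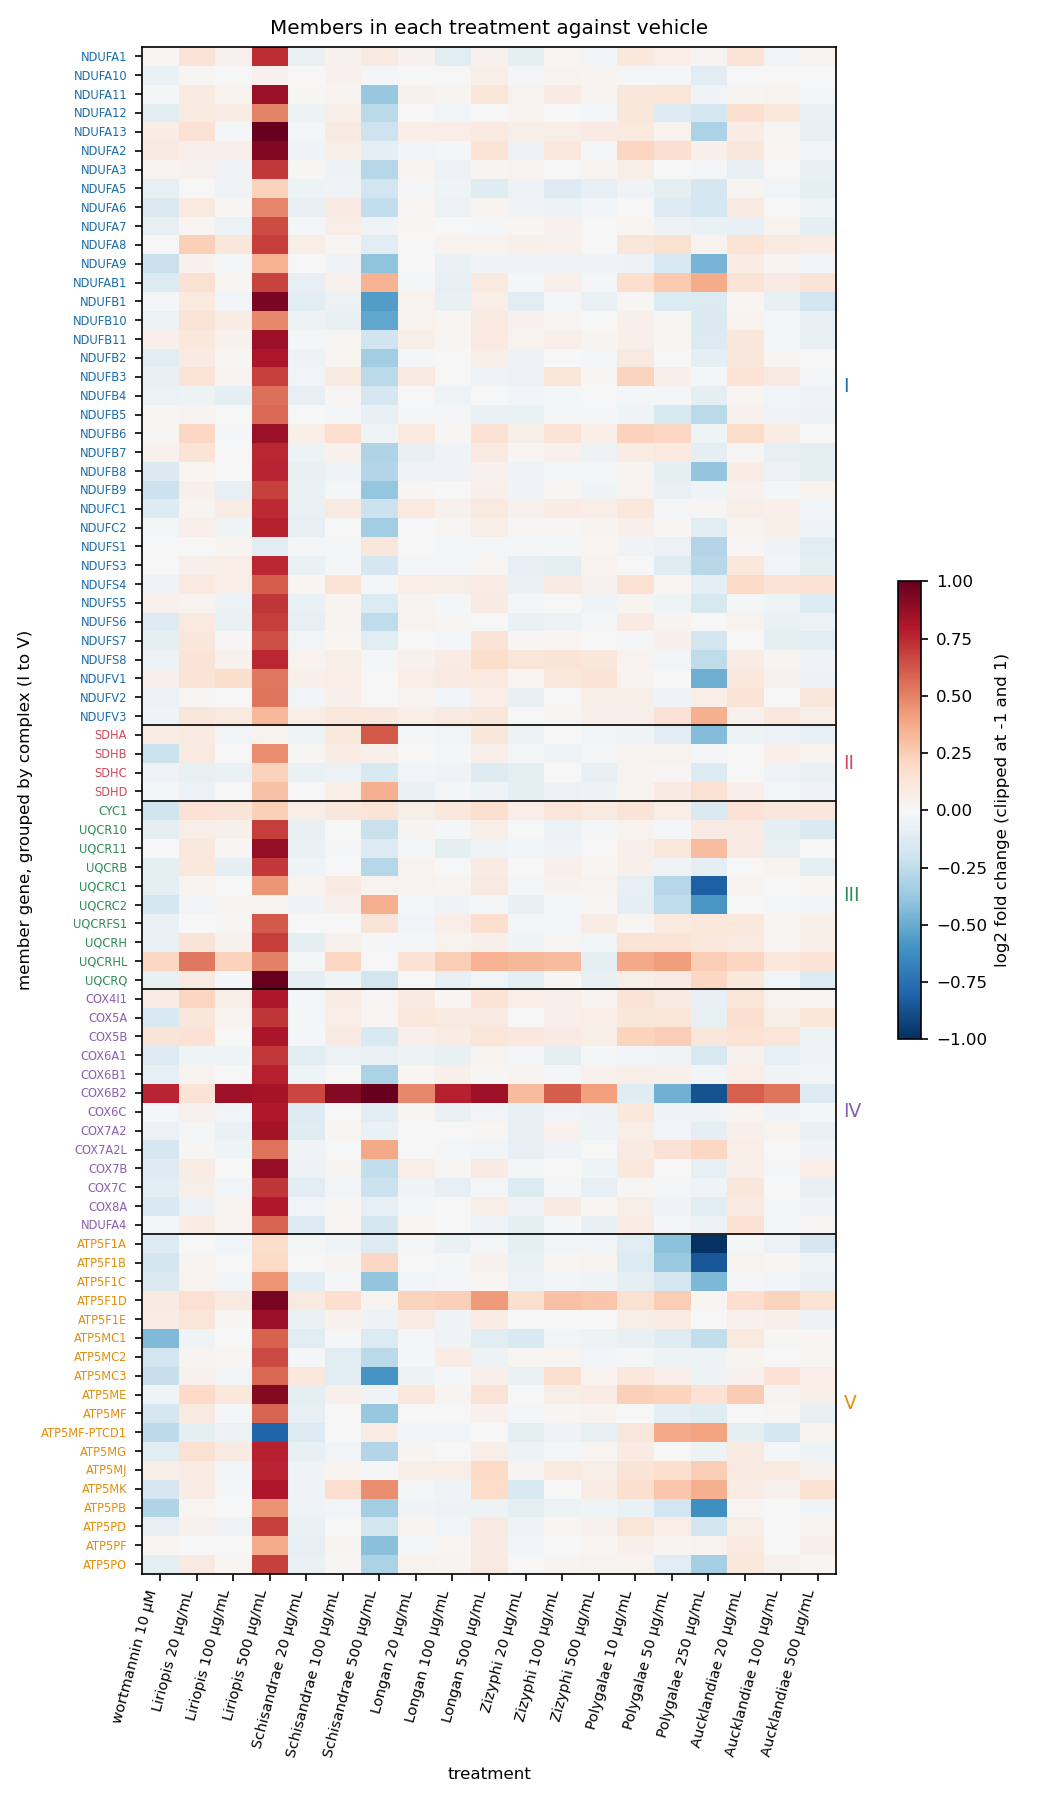
Log2 fold change against vehicle of 81 of the 82 members (rows, grouped by complex) under each of the 19 treatments (columns), with colours limited at −1 and 1. The 250 μg/mL Polygalae and 500 μg/mL Schisandrae columns hold both signs, and the 500 μg/mL Liriopis column is positive for nearly all members with replicate 1 included.

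Members changed in both directions at 500 μg/mL Schisandrae. Against 20 μg/mL, 8 members, COX6B2 among them, rose and 6 fell, where 25% of all genes rose and 24.8% fell. Leaving out replicate 1 of 500 μg/mL Liriopis gave 10 rises and 29 falls, where 28.8% of all genes rose and 28.7% fell. The median member differed by −0.08 with 54 of 82 below 0, and the summed level was 5347 ± 129 CPM at 500 μg/mL and 5483 ± 299 CPM at 20 μg/mL (SD, n = 3 each). Leaving out replicate 1 of 20 μg/mL Schisandrae left 9 calls in place of 14.

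Of the 4 subunits of complex II, 2 rose. SDHA read 116, 112 and 109 CPM in vehicle, 104, 109 and 113 CPM at 20 μg/mL, 119.9, 121 and 121 CPM at 100 μg/mL and 171, 179 and 166 CPM at 500 μg/mL. The 3 libraries at 500 μg/mL were the highest of that series, without overlap, and SDHA rose by 0.66 on the log2 scale at 500 against 20 μg/mL (SE 0.044, adjusted p = 2.2e-17). SDHD (chr11:112086773-112120013, plus strand) read 57.5, 55.1 and 56.7 CPM at 500 μg/mL against 46.0, 45.2 and 41.5 CPM at 20 μg/mL, without overlap, and rose by 0.35 (SE 0.090, adjusted p = 0.0011). SDHB read 71.5, 66.0 and 71.3 CPM against 68.5, 69.3 and 66.1 CPM and SDHC 87.7, 83.4 and 82.5 CPM against 90.6, 93.1 and 85.7 CPM, and neither passed the test (log2 fold changes 0.03 and −0.09, adjusted p = 0.86 and 0.33). The 4 subunits summed to 383 ± 5.67 CPM at 500 μg/mL and 311 ± 5.33 CPM at 20 μg/mL. SDHA had fractional expected counts in 98.3% of libraries and SDHD in 86.7%, which RSEM gives where reads match more than one gene, so their levels are less certain to that extent. This limit is not particular to them. Counts were fractional in most libraries for 29 of 82 members, among them ATP5PB (100%) and NDUFA9 (96.7%).

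Of the remaining rises, UQCRC2 read 111, 117 and 110.4 CPM at 500 μg/mL against 83.5, 86.8 and 85.7 CPM at 20 μg/mL, a rise of 0.40 (SE 0.043, adjusted p = 5.3e-11). ATP5F1B read 521, 501 and 521 CPM against 449, 438 and 449 CPM and rose by 0.21 (SE 0.056, adjusted p = 0.0019). Both genes were higher in all 3 libraries at 500 μg/mL than in any at 20 μg/mL. COX7A2L, which helps complexes III and IV join into supercomplexes, read 66.6, 66.5 and 67.1 CPM against 52.8, 49.5 and 48.6 CPM and rose by 0.41 (adjusted p = 0.011). ATP5MK, a small membrane subunit that helps ATP synthase form dimers, and NDUFAB1, the mitochondrial acyl carrier protein in complex I, rose by 0.50 and 0.43 (adjusted p = 0.042 and 0.037). These last calls depend on single libraries. ATP5MK lost its call when replicate 1 or 3 of either dose was left out (adjusted p from 0.07 to 0.16), and NDUFAB1 when any 1 of the 6 libraries but replicate 2 of 20 μg/mL was left out (adjusted p from 0.064 to 0.11). COX6B2 read 1.86, 1.91 and 2.01 CPM at 500 μg/mL against 0.904, 0.772 and 0.756 CPM at 20 μg/mL and rose by 1.25 (SE 0.27, adjusted p = 0.00015). COX6B2 entered the set only through its level in this 500 μg/mL group, so its call is no independent result. Its ubiquitous counterpart COX6B1 read 82.8, 76.3 and 85.3 CPM against 101, 113 and 81.6 CPM, where the doses overlap, and did not pass (log2 fold change −0.27, adjusted p = 0.25), but was called at −0.28 without replicate 1 of 500 μg/mL Liriopis (adjusted p = 0.004).

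The 6 members that fell with Schisandrae in the fit of all libraries lie in complexes I and V, while the 29 that fell without replicate 1 of 500 μg/mL Liriopis also held UQCRB of complex III and COX6B1 and COX7B of complex IV. ATP5MC3, one of the genes for the c-ring, read 6.36, 5.51 and 5.02 CPM in vehicle, 6.07, 5.81 and 6.34 CPM at 20 μg/mL, 5.30, 4.69 and 5.70 CPM at 100 μg/mL and 3.43, 3.47 and 4.28 CPM at 500 μg/mL, a log2 fold change of −0.70 at 500 against 20 μg/mL (SE 0.19, adjusted p = 0.0017). The libraries at 500 μg/mL were the lowest of that series. ATP5MC1 and ATP5MC2, which give the same mature protein, were at −0.02 and −0.25 and did not pass (adjusted p = 0.92 and 0.19), with ATP5MC2 at −0.25 without replicate 1 of 500 μg/mL Liriopis (adjusted p = 0.0046). NDUFB10, an accessory subunit of the membrane arm of complex I, read 41.3, 39.0 and 39.4 CPM at 500 μg/mL against 56.2, 56.9 and 53.2 CPM at 20 μg/mL and fell by 0.47 (SE 0.14, adjusted p = 0.0037). NDUFA9 read 33.3, 37.5 and 31.2 CPM against 45.8, 43.9 and 45.6 CPM and fell by 0.41 (SE 0.097, adjusted p = 0.00046). Both were lower in all 3 libraries at 500 μg/mL than in any at 20 μg/mL. ATP5PF, ATP5PB and ATP5F1C fell by 0.33, 0.30 and 0.29 (adjusted p = 0.039, 0.034 and 0.031). In complex I, 31 of 37 members were below 0 and the summed level was 1572 ± 27.9 CPM at 500 μg/mL and 1715 ± 81.6 CPM at 20 μg/mL. Across the 82 members the change had a Spearman rho of 0.28 with transcript length, against 0.004 across all genes with a length, again as a description.

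Against vehicle, 500 μg/mL Schisandrae had 7 members higher, COX6B2 among them, and 8 lower, where 25.3% of all genes were higher and 25.6% lower. Without replicate 1 of 500 μg/mL Liriopis, 12 were higher and 35 lower (29.1% and 29.5% of all genes). SDHA differed by 0.62, UQCRC2 by 0.36 and COX7A2L by 0.38 (adjusted p = 2.2e-16, 7.3e-10 and 0.019 by edgeR), the last with an adjusted p of 0.063 without vehicle replicate 2 and 0.066 without vehicle replicate 3. ATP5MC3 differed by −0.59 and NDUFB10 by −0.52 (adjusted p = 0.0075 and 0.0014). NDUFB1, a small subunit of the membrane arm of complex I, read 14.5, 13.3 and 15.0 CPM against 21.2, 22.8 and 18.9 CPM in vehicle. Its difference of −0.55 (adjusted p = 0.047) did not hold when vehicle replicate 1 or 2 or any library of the 500 μg/mL group was left out, with adjusted p from 0.072 to 0.13.

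**Figure D3:**
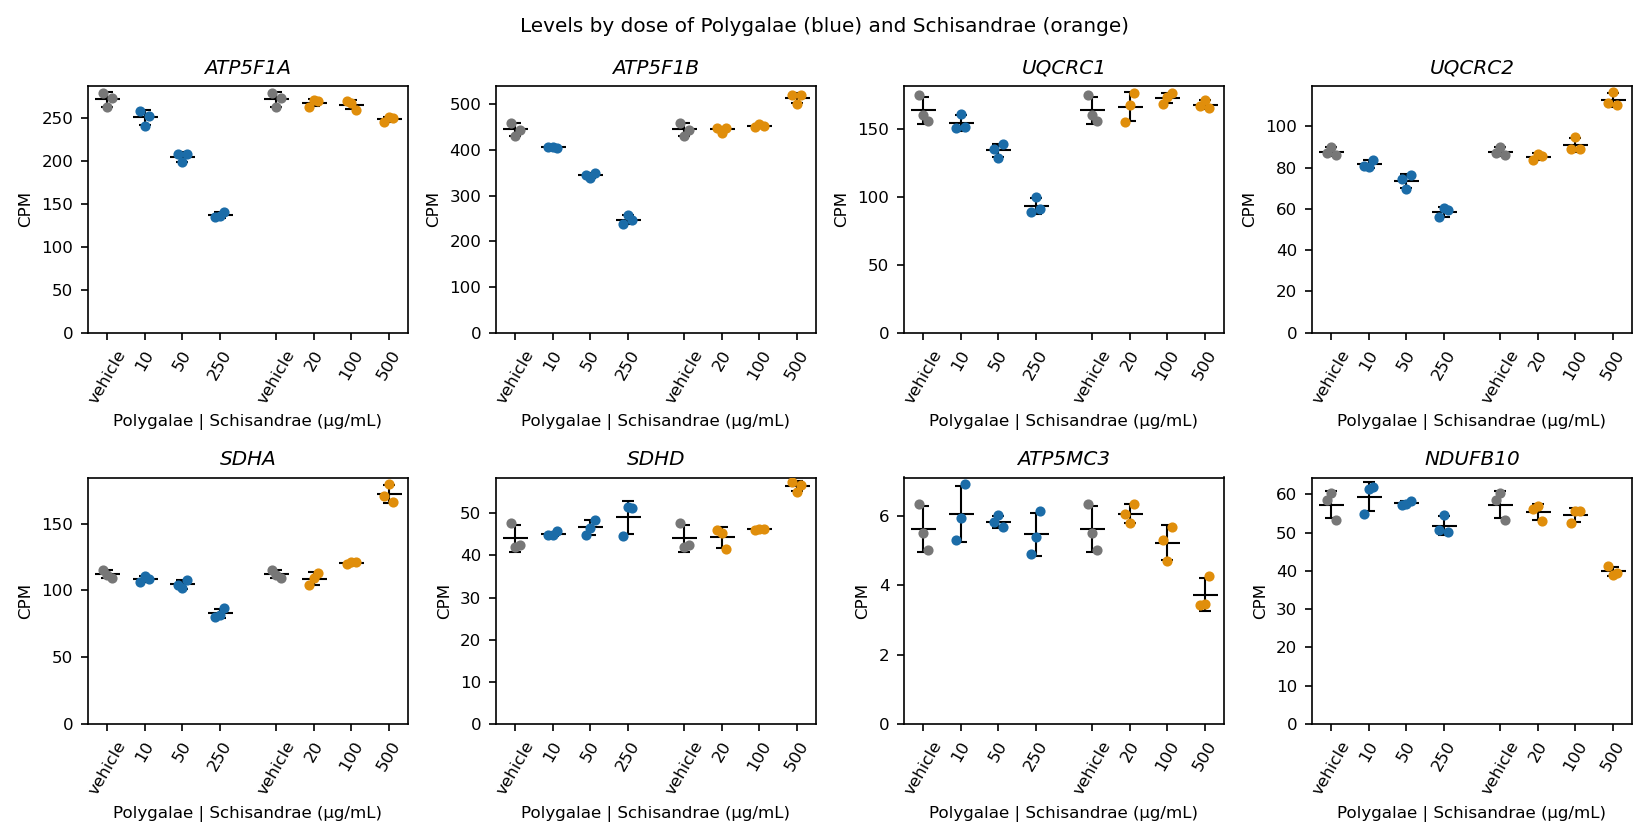
Level in each library, in CPM, of 8 members in vehicle and at the 3 doses of Polygalae (blue, 10, 50 and 250 μg/mL) and Schisandrae (orange, 20, 100 and 500 μg/mL), with the mean ± SD of 3. ATP5F1A and ATP5F1B step down with Polygalae, and SDHA reaches 166 to 179 CPM at 500 μg/mL Schisandrae against 80.4 to 86.9 CPM at 250 μg/mL Polygalae.

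The effects of the highest dose over the lowest differed between Schisandrae and Polygalae. The doses are unequal, 500 over 20 μg/mL for Schisandrae and 250 over 10 μg/mL for Polygalae, so these are differences between the dose pairs tested. In an interaction term of the same edgeR fit, 11 members differed, 10 with a higher and 1 with a lower effect in Schisandrae. Of all genes, 20.7% had a higher and 20.3% a lower effect. COX6B2, a member only through its level at 500 μg/mL Schisandrae, is among the 10. When replicate 1 of 500 μg/mL Liriopis was left out, 15 were higher and 6 lower (25.3% and 24.8% of all genes). SDHA differed most in terms of p among members above 5 CPM, at 1.05 (SE 0.062, adjusted p = 1.1e-18). UQCRC2 differed by 0.88 (SE 0.061, adjusted p = 1.8e-16) and ATP5F1B by 0.92 (SE 0.080, adjusted p = 2.8e-13). These genes rose with one extract and fell with the other. ATP5F1A and UQCRC1 differed by 0.77 and 0.74 (adjusted p = 4.6e-10 and 0.00024), while their change with Schisandrae alone was −0.11 and 0.01 and did not pass. ATP5F1A also fell with Schisandrae, by 0.11 (adjusted p = 0.016), when replicate 1 of 500 μg/mL Liriopis was left out. NDUFV3 differed by −0.27 (SE 0.093, adjusted p = 0.018), and its adjusted p was 0.056 without the filter on low counts and 0.088 with a correction for transcript length.

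All 15 members of the group in which most bind substrates or carry electrons had a higher effect in Schisandrae, with a median difference of 0.24. Of these, 7 passed the test, or 8 without replicate 1 of 500 μg/mL Liriopis. The shares of the other members and of all genes with a higher effect are not given here. The sign shared by the 15 therefore does not set them apart, and the list was chosen with earlier results known. NDUFA9, ATP5PB and ATP5F1C fell with both extracts, which is 50% of the 6 that fell with Schisandrae and 25% of the 12 that fell with Polygalae, against 30.8% and 41.7% over all genes that fell. SDHA, UQCRC2 and ATP5F1B rose with Schisandrae and fell with Polygalae, which is 37.5% of the 8 that rose and 25% of the 12 that fell, against 16.1% and 22.0% over all genes. When replicate 1 of 500 μg/mL Liriopis was left out, 13 members fell with both extracts, 44.8% of the 29 and 40.6% of the 32 (36.3% and 45.9% over all genes), and 4 rose with Schisandrae and fell with Polygalae, 40% of the 10 and 12.5% of the 32 (19.8% and 25.2% over all genes). Across the 82 members the effects of the extracts had a Pearson r of −0.03, against 0.16 across all genes. Leaving out COX6B2 moved the members' value to 0.17, so the lower value rests on that gene. The genes share one fit and the libraries of each herb, and no p is given.

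**Figure D4:**
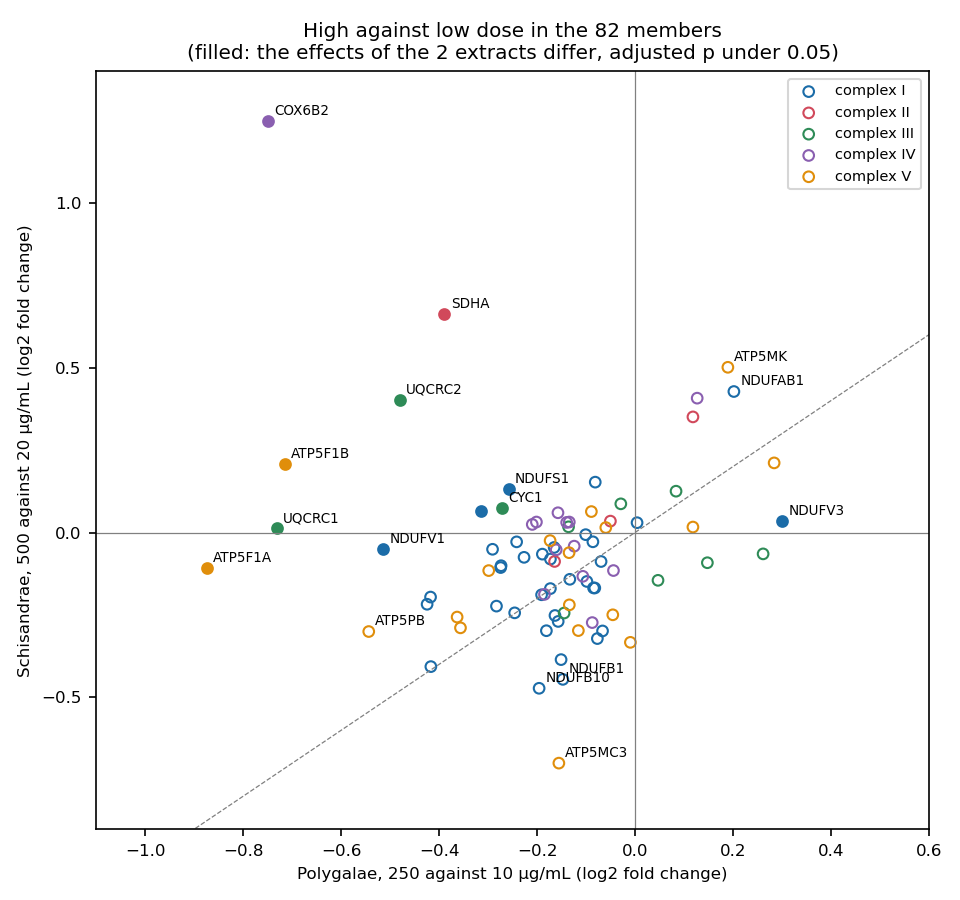
Log2 fold change of each member between 500 and 20 μg/mL Schisandrae (vertical axis) and between 250 and 10 μg/mL Polygalae (horizontal axis). Filled points mark the 11 members whose effects differ between the extracts at an adjusted p under 0.05; SDHA, UQCRC2 and ATP5F1B lie above 0 for Schisandrae and below 0 for Polygalae.

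The sequences around the starts of 3 of these genes are shown because they span the patterns described, UQCRC1 falling with Polygalae, SDHA moving in opposite directions and SDHD rising with Schisandrae. RefSeq (GRCh38.p14) gives windows of 300 bases, 250 before and 50 after a start, for 66 of the 82 members, 79 windows in all. Capitals mark matches on either strand to GCGCANGCG (NRF1), CCGGAAG (ETS factors such as GABPA), AAGATGGCG (YY1) and TCAAGGTCA (ERR, the family of ESRRA). Matches to different motifs do not overlap in these 3 windows. The windows lie at chr3:48609597-48609896 on the minus strand for UQCRC1, chr5:218070-218369 on the plus strand for SDHA and chr11:112086623-112086922 on the plus strand for SDHD, and run 5′ to 3′.
UQCRC1: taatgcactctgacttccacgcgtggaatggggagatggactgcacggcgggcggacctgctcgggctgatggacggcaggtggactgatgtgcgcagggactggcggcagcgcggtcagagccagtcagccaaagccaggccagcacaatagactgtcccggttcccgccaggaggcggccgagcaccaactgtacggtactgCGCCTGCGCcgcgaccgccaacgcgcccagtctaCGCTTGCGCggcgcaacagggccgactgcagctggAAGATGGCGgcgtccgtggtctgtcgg
SDHA: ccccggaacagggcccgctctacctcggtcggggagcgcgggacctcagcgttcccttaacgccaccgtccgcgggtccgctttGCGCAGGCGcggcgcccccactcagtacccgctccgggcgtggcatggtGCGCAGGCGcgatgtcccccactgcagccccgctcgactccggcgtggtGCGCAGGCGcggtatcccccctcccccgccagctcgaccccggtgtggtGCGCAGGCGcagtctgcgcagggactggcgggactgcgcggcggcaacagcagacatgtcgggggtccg
SDHD: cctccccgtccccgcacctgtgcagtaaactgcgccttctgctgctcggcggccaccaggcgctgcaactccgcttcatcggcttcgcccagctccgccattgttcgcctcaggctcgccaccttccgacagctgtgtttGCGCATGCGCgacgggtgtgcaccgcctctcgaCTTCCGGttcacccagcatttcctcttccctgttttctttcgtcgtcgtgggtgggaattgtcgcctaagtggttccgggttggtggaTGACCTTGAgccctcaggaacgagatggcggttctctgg
Positions are those of the first base of a match as printed. The UQCRC1 window holds NRF1 matches 46 and 12 bases before the start and a YY1 match 23 bases after it. In the SDHA window there are 4 NRF1 matches, at 166, 117, 68 and 19 bases before the start. The SDHD window has NRF1 matches that overlap on opposite strands 110 and 109 bases before the start, an ETS match 77 bases before it, and an ERR match 11 bases after it. Over all member windows, 29.11% held an NRF1 match against 7.518% of all 35116 windows, 27.85% an ETS match against 10.26%, 12.66% a YY1 match against 1.748% and 1.266% an ERR match against 0.3531%. The ERR share of the members is 1 of 79 windows, the SDHD window printed above. A match describes the letters and is no evidence of binding.

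Genes around the respiratory chain did not follow the members uniformly. The counts over these lists stand beside 17.9% of all genes that rose and 18.3% that fell with Polygalae, and 25% and 24.8% with Schisandrae, at the highest against the lowest dose. In the fit without replicate 1 of 500 μg/mL Liriopis these shares were 23%, 22.7%, 28.8% and 28.7%. With Polygalae, the 13 subunits encoded by mtDNA were all above 0 at 250 against 10 μg/mL, with a median of 0.31, 6 rising and none falling, and 8 rising without replicate 1 of 500 μg/mL Liriopis. These calls rest on 1 library of the 10 μg/mL group. Without TMM scaling, transcripts of the mitochondrial genome made up 12.5%, 13.4% and 12.4% of counts in the libraries at 250 μg/mL. They made up 10.97%, 7.87% and 9.92% at 10 μg/mL, where replicate 2 is the lowest, and 10.3%, 10.4% and 10.6% in vehicle. The fold changes are on TMM totals, so these shares are on another scale. Without replicate 2 of 10 μg/mL no mtDNA-encoded subunit passed by edgeR and the median was 0.16, still with all 13 above 0. Leaving out each other library of the 6 left 2 to 10 rising, the 2 without replicate 2 of 250 μg/mL and the 10 without replicate 1 of 10 μg/mL. At 250 μg/mL against vehicle none passed by edgeR or DESeq2, 2 had an unadjusted p under 0.05 and the median was 0.16. With all libraries, MT-CYB, the mtDNA-encoded cytochrome b of complex III, averaged 8429 ± 235 CPM at 250 μg/mL and 6060.5 ± 1326 CPM at 10 μg/mL (SD, n = 3 each) and rose by 0.48 (adjusted p = 0.0022). MT-ATP8, MT-ND6 and MT-ATP6 rose by 0.65, 0.59 and 0.42 (adjusted p = 0.0036, 0.0089 and 0.0097). With Schisandrae, 3 of these 13 fell and none rose, with a median of −0.25. They were MT-ND2, MT-ND1 and MT-ATP6, at −0.64, −0.59 and −0.38 (adjusted p = 0.00031, 0.00085 and 0.016). Without TMM scaling, transcripts of the mitochondrial genome made up 9.60%, 7.79% and 8.55% of counts at 500 μg/mL Schisandrae. At 20 μg/mL they made up 11.4%, 10.1% and 8.50%, so the doses overlap on that scale. Leaving out 1 of the 6 libraries gave 2 to 6 falls, 2 without replicate 1 of 20 μg/mL or replicate 2 of 500 μg/mL and 6 without replicate 3 of 20 μg/mL or replicate 1 of 500 μg/mL. All 13 had a lower effect in Schisandrae than in Polygalae and 7 passed the interaction test, with a median of −0.56. Without replicate 2 of 10 μg/mL Polygalae, 12 of 13 were lower, 7 passed and the median was −0.43.

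The citric acid cycle, which feeds complexes I and II, had lower transcript levels for most of its genes with Polygalae. Of 18 genes of the cycle and of pyruvate dehydrogenase, 16 fell and none rose, with a median of −0.38, and 17 fell and 1 rose without replicate 1 of 500 μg/mL Liriopis. Citrate synthase (CS), which starts the cycle, averaged 156 ± 3.18 CPM at 250 μg/mL and 247 ± 13.0 CPM at 10 μg/mL (SD, n = 3 each) and fell by 0.67 (adjusted p = 2.4e-12). SUCLG2, IDH2 and FH fell by 0.80, 0.79 and 0.60 (adjusted p = 7.6e-17, 3.5e-15 and 1.3e-11). With Schisandrae, 4 of the 18 rose and 4 fell (5 and 6 without that library), among them PDHX at 0.46 and DLD at −0.34 (adjusted p = 1.9e-09 and 6.9e-06). The interaction passed for 14 of the 18, each with a higher effect in Schisandrae.

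Regulators of mitochondrial biogenesis showed changes of their own. With Polygalae, 9 of 15 tested rose and none fell, with a median of 0.25, and 12 rose and 1 fell without replicate 1 of 500 μg/mL Liriopis. PPARGC1A averaged 8.91 ± 0.310 CPM at 250 μg/mL and 4.40 ± 0.666 CPM at 10 μg/mL (SD, n = 3 each) and rose by 1.02 (adjusted p = 5.5e-07). NRF1, YY1 and TFAM rose by 0.33, 0.17 and 0.18 (adjusted p = 0.00033, 0.002 and 0.019), while ESRRA at 0.20 and GABPA at −0.19 did not pass (adjusted p = 0.073 and 0.12). With Schisandrae, 7 of the 15 rose and 3 fell (8 and 4 without that library). PPARGC1A averaged 0.324 ± 0.206 CPM at 500 μg/mL and 2.04 ± 0.0907 CPM at 20 μg/mL and fell by 2.68 (adjusted p = 8.9e-12). TFAM fell by 0.29, YY1 and ESRRA rose by 0.33 and 0.53 (adjusted p = 0.0002, 2.1e-08 and 2.6e-06), and NRF1 and GABPA were at 0.07 and 0.06 and did not pass (adjusted p = 0.5 and 0.64). The interaction value of PPARGC1A was −3.69 (adjusted p = 8.1e-14).

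Other mitochondrial lists were split, and the counts in brackets leave out replicate 1 of 500 μg/mL Liriopis. Of 52 assembly factors, 9 rose and 6 fell with Polygalae (14 and 9), among them ACAD9, needed to build complex I, at −0.44 (adjusted p = 1.7e-08). With Schisandrae 10 rose and 12 fell (15 and 20), with ACAD9 at −0.60 and the complex IV copper factor COX19 at 0.76 (adjusted p = 4.1e-12 and 5.6e-09). Of 7 carriers that move nucleotides and phosphate across the mitochondrial membranes, 3 fell and none rose with Polygalae (4 and 1), including the ADP/ATP carrier SLC25A5 at −0.59, and with Schisandrae 2 rose and 1, the carrier SLC25A4, fell by 0.94 (2 and 3, adjusted p = 6e-07 and 4.8e-09). Of 13 mitochondrial chaperones and proteases, 9 rose and none fell with Schisandrae (10 and 1), with HSPA9 at 0.65 and the protease LONP1 at 0.63 (adjusted p = 1.7e-17 and 3.5e-10), and 3 rose and 3 fell with Polygalae (5 and 3). Mitochondrial ribosomal proteins, 78 in number, had 9 rises and 4 falls with Polygalae (19 and 10) and 14 rises and 11 falls with Schisandrae (22 and 20). In the fit of all libraries that is 11.5% and 5.13% of the list with Polygalae and 17.9% and 14.1% with Schisandrae, each below the share of all genes. Of 16 genes of ubiquinone synthesis and electron carriers, 2 rose and 6 fell with Polygalae (2 and 7) and 7 rose and 4 fell with Schisandrae (7 and 5). Of 12 hypoxia-inducible genes, 4 rose and 5 fell with Polygalae (4 and 5), including LDHA at −1.15, and 6 rose and 3 fell with Schisandrae (8 and 3), including VEGFA at 1.08 (adjusted p = 2e-21 and 8e-16).

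The summed level of a list of cell markers was lower in the same comparisons. Most of that sum is VIM and CD44, and GFAP, S100B and AQP4 add almost nothing to it in vehicle. The summed level of 9 astrocyte and glioma markers was 4243 ± 162 CPM at 250 μg/mL Polygalae and 7397 ± 211 CPM at 10 μg/mL, and 7121 ± 166 CPM at 500 μg/mL Schisandrae and 8117 ± 197 CPM at 20 μg/mL (SD, n = 3 each). VIM fell by 1.17 with Polygalae and CD44 by 0.53 with Polygalae and 0.69 with Schisandrae. The change of VIM with Schisandrae is not given here, so the lower sum there is not to be read as a fall of VIM. The other markers of the list are not described singly, so the sum does not stand for all of them. The part of these markers in the members' values was not tested.

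A small number of members fell with wortmannin against vehicle, whose library names begin differently. Of the 82, 3 fell and none rose, where 6.52% of all genes fell and 5.45% rose, and without replicate 1 of 500 μg/mL Liriopis 11 fell and none rose (12.3% and 10.4% of all genes). The median member was at −0.06 with 62 of 82 below 0, and the summed level was 5301 ± 151 CPM with wortmannin and 5633 ± 353 CPM in vehicle (SD, n = 3 each). UQCRC2 read 77.0, 77.4 and 78.8 CPM with wortmannin against 86.9, 90.0 and 86.1 CPM in vehicle and fell by 0.17 (SE 0.043, adjusted p = 0.0037). CYC1 read 80.6, 78.5 and 85.2 CPM against 99.8, 87.3 and 93.5 CPM and fell by 0.20 (SE 0.056, adjusted p = 0.012). ATP5F1B read 393, 384 and 397 CPM against 460.4, 431 and 444 CPM and fell by 0.19 (SE 0.056, adjusted p = 0.022). In each of the 3 genes every wortmannin library lay below every vehicle library. Without the filter on low counts none of the 3 passed, with adjusted p from 0.17 to 0.23. Leaving out vehicle replicate 1 or wortmannin replicate 2 left UQCRC2 as the 1 member that passed, and ATP5F1B also lost its call without vehicle replicate 3 or wortmannin replicate 1 (adjusted p = 0.055 and 0.058).

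ATP5MC1 showed the largest difference of any member above 5 CPM without passing. It read 56.5, 62.1 and 64.5 CPM with wortmannin against 89.6, 80.3 and 78.5 CPM in vehicle, without overlap, at a log2 fold change of −0.44 (adjusted p = 0.056), and was called at −0.44 without replicate 1 of 500 μg/mL Liriopis (adjusted p = 9e-05). This gene was singled out after its values were seen. Among the other lists, none of the 13 mtDNA-encoded subunits passed by edgeR with wortmannin, 0 of them had an unadjusted p under 0.05 and DESeq2 called 0. In the same comparison 5 of 18 genes of the citric acid cycle and pyruvate dehydrogenase fell (9 without replicate 1 of 500 μg/mL Liriopis), including IDH3A at −0.33 (adjusted p = 2.2e-07), and 7 of 13 chaperones and proteases fell (8 without it), including HSPD1 at −0.35 (adjusted p = 7.7e-06).

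For Aucklandiae, no member passed at 500 against 20 μg/mL by edgeR or DESeq2, and 3 had an unadjusted p under 0.05, where 5.3% of all genes fell and 5.32% rose. The median was −0.09 with 75 of 82 members below 0, and the summed level was 5514 ± 82.4 CPM at 500 μg/mL and 5856 ± 314 CPM at 20 μg/mL. The libraries overlapped, with sums of 5599, 5435 and 5509 CPM against 6156, 5881 and 5530 CPM. For 46 members the mean was lower at each dose step, and for none was it higher. The share of all genes was not computed for these steps and members share libraries, so the count is no dose trend by itself. Without replicate 1 of 500 μg/mL Liriopis, 5 fell, among them the small complex III subunits UQCRQ at −0.24 and UQCR10 at −0.23, ATP5F1A at −0.16 and NDUFS1 at −0.13 (9.3% of all genes fell and 10% rose). Against vehicle, no member passed at 500 μg/mL by edgeR and 1 had an unadjusted p under 0.05, while DESeq2 called 1, ATP5F1A (6.69% and 6.54% of all genes were lower and higher by edgeR). ATP5F1A was also lower by edgeR without replicate 1 of 500 μg/mL Liriopis, at −0.17 (adjusted p = 0.0011), where 11.3% and 11.6% of all genes were lower and higher, and with only the 2 groups compared in the fit.

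For Longan, no member passed at 500 μg/mL against vehicle by edgeR or DESeq2, and 4 had an unadjusted p under 0.05 (0.298% of all genes were higher and 0.545% lower). Without replicate 1 of 500 μg/mL Liriopis, 4 were higher (3.09% of all genes were higher and 3.93% lower), namely ATP5F1D, the delta subunit of the ATP synthase head, at 0.43 (adjusted p = 0.0007), the Rieske iron-sulphur protein UQCRFS1 of complex III at 0.17, CYC1 at 0.17 and SDHA at 0.12 (adjusted p = 0.024, 0.033 and 0.038). ATP5F1D read 47.8, 39.7 and 44.4 CPM at 500 μg/mL Longan against 35.7, 32.5 and 30.0 CPM in vehicle. Against 20 μg/mL Longan none passed by edgeR or DESeq2, and 1 had an unadjusted p under 0.05 (0.124% of all genes rose and 0.124% fell), while UQCRFS1 rose without the Liriopis library (0.819% and 1% of all genes). For Zizyphi, no member passed at 500 μg/mL against vehicle or against 20 μg/mL by edgeR or DESeq2, and 0 and 1 had an unadjusted p under 0.05, where 0.247% and 0.292% of all genes were higher and 0.36% and 0.382% lower. At the 2 lower doses of these 3 extracts, of Schisandrae and of Liriopis, no member passed against vehicle by edgeR or DESeq2, and 0 to 2 had an unadjusted p under 0.05. Of all genes, 1.02% were called at 100 μg/mL Schisandrae, 0.455% at 100 μg/mL Aucklandiae, 0.0393% at 100 μg/mL Zizyphi, 0.0281% at 100 μg/mL Longan and 0.0112% at 100 μg/mL Liriopis. At 20 μg/mL the share was 0.00562% for Aucklandiae, Longan and Liriopis and 0% for Schisandrae and Zizyphi.

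Liriopis at 500 μg/mL gave the largest count of calls, and it rests on 1 library. Against vehicle, 75 of 82 members were higher and 1 lower, where 18.7% of all genes were higher and 15.2% lower. Against 20 μg/mL, 67 were higher and none lower (11.8% and 4.27% of all genes). Without replicate 1 of the 500 μg/mL group, no member passed in either comparison by edgeR, 4 had an unadjusted p under 0.05 against vehicle and 7 against 20 μg/mL, and the medians were 0.04 and −0.01 (0.00553% of all genes were lower than in vehicle and 0% higher, and 0% were lower or higher than at 20 μg/mL). The count against 20 μg/mL also went to 0 without replicate 2 of the 20 μg/mL group and to 18 without its replicate 3.

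NDUFA13, a membrane-arm subunit of complex I also known as GRIM-19, read 216, 57.2 and 57.6 CPM at 500 μg/mL against 59.4, 54.3 and 49.1 CPM in vehicle, a log2 fold change of 1.02 (adjusted p = 0.0023) that was 0.08 without replicate 1 (adjusted p = 0.86). UQCRQ, a small subunit of complex III, read 276, 73.5 and 80.2 CPM against 78.3, 67.4 and 66.1 CPM, with 1.02 and 0.13 without replicate 1 (adjusted p = 0.0023 and 0.77). ATP5F1D read 117, 34.9 and 38.5 CPM against 35.7, 32.5 and 30.0 CPM, with 0.95 and 0.17 (adjusted p = 0.0023 and 0.73). In each, replicate 1 stood far above the other 2 libraries of its group, which lay near the vehicle libraries. ATP5MF-PTCD1, a read-through of a complex V gene into its neighbour, was the 1 member lower, with 0.160, 11.1 and 13.4 CPM against 14.0, 16.2 and 13.7 CPM in vehicle (log2 fold change −0.80, adjusted p = 0.035, and 0.71 without replicate 1). It shares exons with ATP5MF, and its counts were fractional in 100% of libraries.

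Within the group, replicate 1 exceeded the mean of replicates 2 and 3 by a median of 1.41 on the log2 CPM scale over the members, with 80 of 82 above 0. Of the members, 59 (72.0%) lay above the 90th percentile of all genes for that gap, 1.12. The gap ran with transcript length. Over all genes its median was 0.81 under 1 kb, 0.45 from 1 to 2 kb, −0.13 from 2 to 4 kb and −0.69 at 4 kb or more. Among members it was 1.52 for the 54 under 1 kb, 0.97 for the 17 from 1 to 2 kb, 0.45 for the 10 from 2 to 4 kb and 0.71 for the 1 longer member. Members exceeded the median of all genes in each of these classes. The cytosolic ribosomal proteins, which also have short transcripts, had a median of 1.45 in log2 CPM above their mean over the 60 libraries there, against −0.21 to 0.16 in the 59 others. Adding a length correction to the test left 47 members called against 20 μg/mL.

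**Figure D5:**
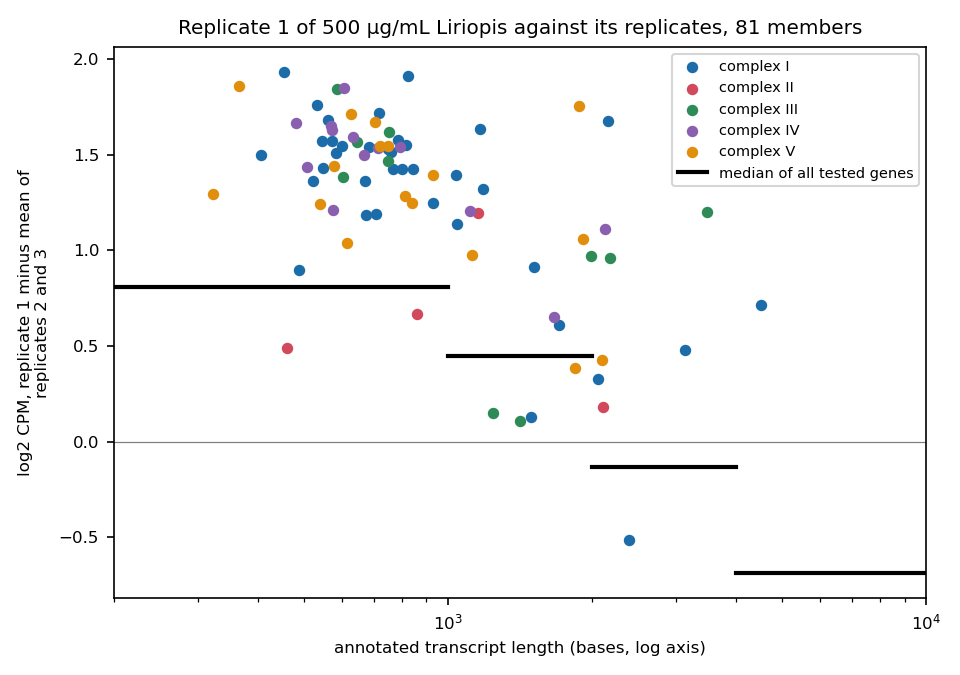
Gap between replicate 1 and the mean of replicates 2 and 3 of 500 μg/mL Liriopis, in log2 CPM (vertical axis), against transcript length in bases on a log axis, for the members by complex; ATP5MF-PTCD1 at −5.68 is not drawn. Black lines give the median of all tested genes in 4 length classes, from 0.81 under 1 kb to −0.69 at 4 kb or more, and most members lie above the line of their class.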

How the data were processed

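Messenger RNA libraries of SW1783 cells were made with a directional kit and read as 100 bp pairs by MGI sequencing, per the labels' protocols. The deposited table holds expected counts per gene, made by the authors. The submitters' processing notes name RSEM 1.3.3, STAR 2.7.3a, FastQC 0.11.9 and Trim Galore 0.6.5, and the build GRCh38. Which annotation and strand setting were used was not given in the sources used here. Among the expected counts, 11.02% were not whole, and all were rounded. Gene symbols (56558 identifiers matched) came from the reference gene names, and coordinates and transcript lengths (the median of a gene's basic protein-coding transcripts) from GENCODE release 29.

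One model of all 60 libraries with a mean per group was fitted by edgeR 4.0.16's quasi-likelihood test in R 4.3.3 (limma 3.58.1), with TMM scaling, filterByExpr at a minimum count of 10 and Benjamini-Hochberg adjustment over 17792 genes for each of 26 comparisons. A call is an adjusted p under 0.05. The fold changes and CPM values, on TMM totals, were computed from these rounded counts. DESeq2 1.42.0, other scalings and filters, a length offset, a replicate block, the compared groups alone and leaving out each library were alternatives. The test was checked on simulated counts.

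Members and lists were chosen with earlier results of these data known. Values per library are given for up to 3 rises and 3 falls of largest size among called members at 5 CPM or more in the main comparisons, for the most abundant member of each complex per kb, for isoform pairs and for SDHA to SDHD. For other lists, up to 4 genes with the smallest p and 6 regulators fixed by name were eligible. The values of 1 member are not reported here by name, though it stays in the counts, medians and sums.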

Additional observations from a re-analysis of the deposited data

Results flagged for a closer look

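The effect of the highest over the lowest dose differed between Schisandrae and Polygalae for 11 members by the interaction term of the edgeR fit. COX6B2, a member only through its level at 500 μg/mL Schisandrae, is among them. The doses were unequal, 500 over 20 μg/mL and 250 over 10 μg/mL. Among members above 5 CPM, the effect in Schisandrae minus that in Polygalae was 1.05 on the log2 scale for SDHA, 0.92 for ATP5F1B, 0.88 for UQCRC2 and −0.27 for NDUFV3. The first 3 rose with Schisandrae and fell with Polygalae. The extracts were in different library sets, each compared with its own lowest dose.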

How the results depend on the processing

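With only the groups compared in the fit, which changes the spread estimate, the filter and the scaling together, counts of members called were 13 for wortmannin against vehicle, 0 for 500 μg/mL Liriopis against vehicle and against 20 μg/mL, 47 and 39 for 500 μg/mL Schisandrae against vehicle and against 20 μg/mL, 1 for 500 μg/mL Longan against vehicle, 32, 11 and 1 for 250, 50 and 10 μg/mL Polygalae against vehicle, 44 for 250 against 10 μg/mL Polygalae, 1 and 8 for 500 μg/mL Aucklandiae against vehicle and against 20 μg/mL, and 27 for the interaction. With a transcript length offset they were 7 for wortmannin, 24 for 500 μg/mL Schisandrae against vehicle, 1 for Longan, 27, 6 and 1 for 250, 50 and 10 μg/mL Polygalae against vehicle, 28 for 250 against 10 μg/mL, and 1 for Aucklandiae against vehicle. Without the filter on low counts, wortmannin had 1, and DESeq2 gave 1 for Aucklandiae against vehicle. The cause was not tested for these shifts. The counts in this section stand without the share of all genes called under the same setting. They show how calls depend on the setting and do not set the members apart from other genes.

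Leaving out 1 library at a time gave 1 to 11 calls for wortmannin, 0 to 79 and 0 to 75 for 500 μg/mL Liriopis against vehicle and 20 μg/mL, 11 to 47 and 9 to 39 for Schisandrae, 12 to 36, 3 to 19 and 0 to 3 for Polygalae at 250, 50 and 10 μg/mL against vehicle, 13 to 37 for 250 against 10 μg/mL, 0 to 1 and 0 to 5 for Aucklandiae, 0 to 4 and 0 to 1 for Longan, and 10 to 21 for the interaction. The highest count came without replicate 1 of 500 μg/mL Liriopis in each of these except Liriopis. No called member among the named ones changed sign. The median of the members, which has no test, was 0.60 for 500 against 20 μg/mL Liriopis with all libraries and −0.01 without replicate 1 of 500 μg/mL, and medians near 0 in other comparisons also changed sign. For the 87 results on named members, 1070 alternative values kept their side of the threshold, 31 gained a call and 49 lost it.

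Over all groups, same-numbered libraries deviated from their group means with a mean correlation of 0.0027, against −0.0014 for other numbers. The values for the same number ran from −0.27 to 0.22, and 25 of 60 libraries were closest to one of their own number. The mean is over groups of different library sets, so it cannot exclude pairing by replicate number within a set, which was not tested. With the replicate block the counts were 3 for wortmannin, 14 for 250 μg/mL Polygalae against vehicle and against 10 μg/mL, 17 and 14 for 500 μg/mL Schisandrae against vehicle and 20 μg/mL, 11 for the interaction and 1 for Aucklandiae against vehicle.

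Depth limits the members near 1 CPM, such as COX6B2. With 3 libraries a group, the median standard error of 0.17 hides small log2 changes, and it was 0.08 for 250 against 10 μg/mL Polygalae without the Liriopis library. Treatments and vehicle lie in different library sets.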
